A study of Homo sapiens with 10 samples.

Results

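The constitutive proteasome genes of NB4 cells, a line derived from acute promyelocytic leukemia, were described from 2 mRNA-seq experiments. In the knockdown experiment, NB4 cells were transduced with lentivirus, either the pLKO.1 puro vector without insert (EV) or the same vector with a hairpin that targets GSE1 (shA1 or shB2), and harvested 48 h later. In the inhibitor experiment, NB4 cells received DMSO or 2 µM of the LSD1 inhibitor MC2580 for 24 h. Each of the 5 groups has 2 libraries, 10 in all.

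Members were the protein-coding rows with a symbol that starts PSMA, PSMB, PSMC, PSMD, PSME, PSMF or PSMG followed by a digit, without PSMB8, PSMB9, PSMB10, PSME1 and PSME2. This gave 44 of the 60603 rows, or of the 19975 protein-coding rows, of each table. Of these, 43 are proteasome genes. The remaining one, PSMC3IP, meets the rule by its spelling alone and encodes a protein of meiotic recombination. In each table, 42 members reached a base mean of 10, and the other two, PSMA8 and PSMB11, were at or close to 0.

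The value used throughout is the base mean, the authors' average of size-factor-divided read counts over all libraries of an experiment. It therefore joins control and treated cells: 6 libraries of 3 groups in the knockdown experiment and 4 libraries of 2 groups in the inhibitor experiment. No value per library was analysed here, so a base mean carries no SD, no group was compared with another, and no p-value is given. How GSE1 knockdown or MC2580 moves these genes is not described here.

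The base means summed to 40543100 in the knockdown experiment and 41201100 in the inhibitor experiment, and depth per library is not known from these tables. MPO, a defining promyelocyte gene, was in the top percentile of protein-coding genes in both experiments, and CTSG, PRTN3, AZU1 and CD33 were detected, whereas ELANE, another promyelocyte gene, had a base mean of 1.10 and 3.87. Of the lymphoid, erythroid and platelet genes reported here, CD3D had a base mean of 866 and 869 and CD79A of 121 and 116, and CD3E, MS4A1, HBB, ALAS2, PPBP and PF4 were between 0 and 11.7.

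The proteasome is the main protease of the cytosol and nucleus for proteins tagged with ubiquitin. Its barrel, the 20S core, stacks outer rings of alpha subunits, which gate the entrance, on inner rings of beta subunits, a few of which cut peptide bonds. The 19S particle caps the barrel, recognises ubiquitin, removes it, and unfolds the substrate with a ring of ATPases. Each subunit is present in equal number within its ring, dedicated chaperones assemble the parts, and the transcription factor NFE2L1 is known to raise many proteasome genes when proteasome activity falls.

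NFE2L1 and NFE2L2 bind the antioxidant response element, and its core, TGACNNNGC, was looked for on both strands of the RefSeq promoter windows (GRCh38.p14, 250 bases before to 50 bases after each start site). Of the 44 members, 38 had at least 1 window. PSMA7, PSMB1, PSMB6, PSMB7, PSMD4 and PSMG3 had no entry. The core was present in 12 of the 38 members (31.6%), against 13.3% of all 35116 windows and 16.1% of the 27305 genes with a window. The 12354 protein-coding genes that reached a base mean of 10 in each table are named detected genes below, and among the 9674 of them with a window the share was 19.2%. A letter match is a description of the sequence and does not show a bound site.

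For the highest member with the core in each structural class, the windows are printed 5′ to 3′ on the strand of the gene, with the core or its reverse complement in capitals, to show the letters that these genes share and where they lie.
PSMA4, chr15:78540648-78540680, core starting at -126: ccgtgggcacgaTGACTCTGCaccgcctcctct
PSMB3, chr17:38752625-38752657, core starting at -104: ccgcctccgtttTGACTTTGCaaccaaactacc
PSMC5, chr17:63827652-63827684, core on the opposite strand starting at -57: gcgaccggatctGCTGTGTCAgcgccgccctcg
PSMD3, chr17:39980758-39980790, core starting at -37: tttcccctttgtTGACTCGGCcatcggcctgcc
PSMD3, chr17:39980828-39980856, core on the opposite strand starting at 33: gggtttgcagctGCTCCGTCAtcgtgcgg
PSMD9, chr12:121888629-121888661, core on the opposite strand starting at -149: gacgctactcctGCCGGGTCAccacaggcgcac
PSMD9, chr12:121888676-121888708, core starting at -102: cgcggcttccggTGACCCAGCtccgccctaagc
PSME4, chr2:53971007-53971039, core on the opposite strand starting at -34: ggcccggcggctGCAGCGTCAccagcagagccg
PSMG2, chr18:12658687-12658719, core starting at -39: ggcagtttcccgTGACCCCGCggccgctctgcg

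The other members with the core were PSMC4, PSMD1, PSMD5, PSMD12 and PSMG1. Among members with a window, those with the core did not have the higher levels. Their median base mean per kb was 1752 in the knockdown experiment, against 3275 for the 24 detected members with a window and no core. In the inhibitor experiment these medians were 1728 and 2948. The members without a window could not be searched. They include PSMA7, PSMB1, PSMB7 and PSMD4, at ranks 1, 3, 5 and 9 of the members in the knockdown experiment, and PSMB6 and PSMG3, at ranks 17 and 30. The ETS core CCGGAA was present in 23 of the 38 members (60.5%) and in 17.2% of all windows, and CCAAT, the letters bound by NF-Y, in 20 members (52.6%) and 34.6% of all windows. Among detected protein-coding genes the shares were 35.4% for CCGGAA and 43.1% for CCAAT. Of the matches to the core, 0 overlapped CCGGAA or CCAAT.

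Levels of different genes were compared as base mean per kb of the canonical transcript of GENCODE release 44. Proteasome genes were among the more abundant transcripts of NB4 cells. In each experiment, 37 of the 44 members lay in the top 25% of the protein-coding genes that reached a base mean of 10 in that experiment, that is above 935 per kb in the knockdown experiment and 934 per kb in the inhibitor experiment. The members below were the same genes in both: PSMC1, PSMD5, PSMD12, PSME4, PSMC3IP, PSMA8 and PSMB11. The 42 detected members had a median of 3203 and 2748 per kb, and all detected protein-coding genes one of 327 and 291. Together the members took 0.650% of the summed base mean of the knockdown experiment and 0.627% of that of the inhibitor experiment.

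**Figure D1:**
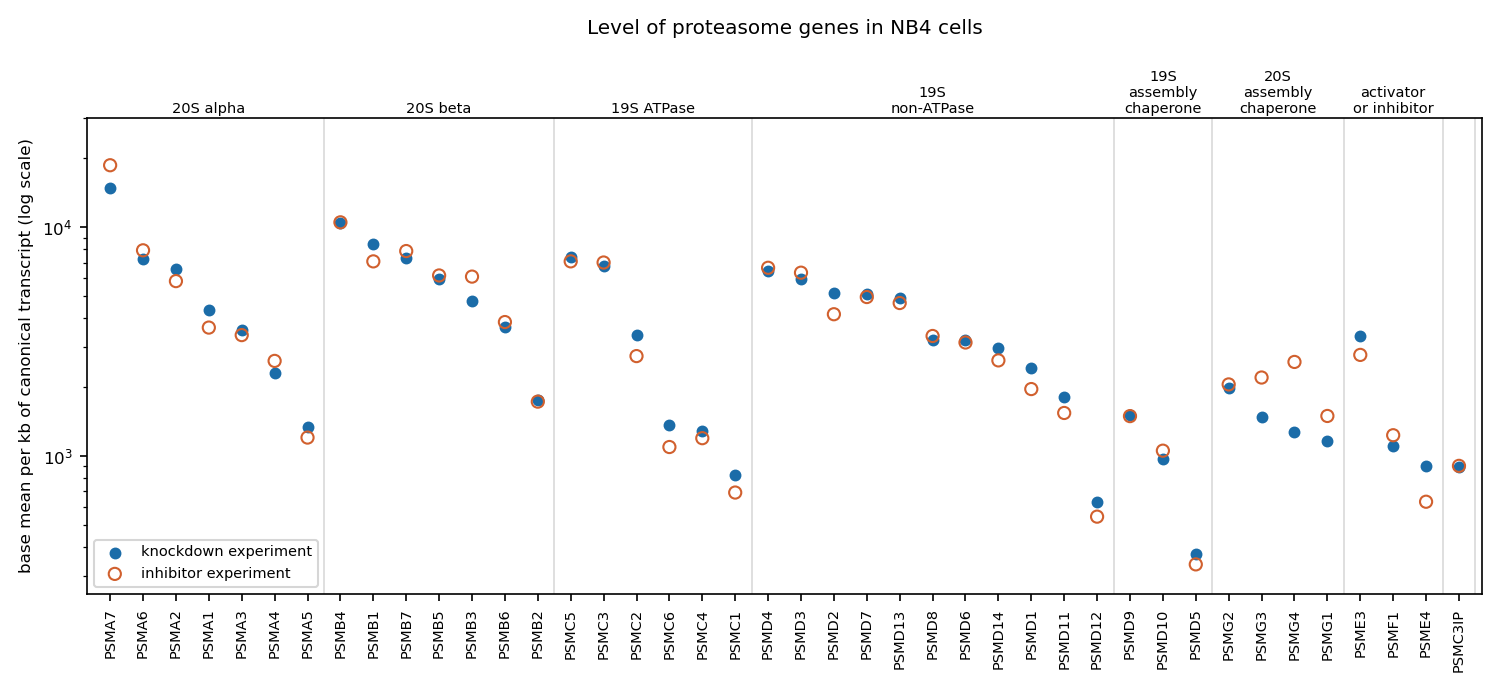
Base mean per kb of canonical transcript, on a log axis, of the 42 detected members in the knockdown experiment (filled points, mean over 6 libraries) and the inhibitor experiment (open points, mean over 4 libraries), grouped by structural class with the lone PSMC3IP at the right. PSMA7 is the highest and PSMD5 the lowest in both, and the widest gap between the points of 1 gene is at PSMG4.

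Among the 7 alpha subunits of the 20S core, PSMA7 stood above the rest. Its base mean per kb was 14824 in the knockdown experiment and 18624 in the inhibitor experiment, the highest of all members in both. PSMA6 followed with 7258 and 7916 per kb, and PSMA2 with 6555 and 5807 per kb. PSMA1 and PSMA3 held the middle of the class. PSMA1 had 4354 and 3639 per kb, and PSMA3 had 3539 and 3374 per kb. The lowest were PSMA4, at 2294 and 2603 per kb, and PSMA5, at 1341 and 1204 per kb. The order of the 7 genes was the same in both experiments, and the highest was 11.1 times the lowest in the knockdown experiment and 15.5 times in the inhibitor experiment.

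The position of the lowest alpha subunits depends on the transcript used for the length. The canonical transcripts of PSMA4 and PSMA5 are 4378 and 3815 bases long, against 955 to 1434 for the other alpha subunits. Per kb of coding sequence, PSMA4 had 12827 and PSMA5 had 7076 in the knockdown experiment, and PSMA3 was the lowest at 4419. PSMA7 was still the highest, at 19168 and 24081 per coding kb in the knockdown and the inhibitor experiment. The ratio of highest to lowest was then 4.34 and 5.72.

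The 7 beta subunits include those with the active sites, PSMB5 (chymotrypsin-like), PSMB6 (caspase-like) and PSMB7 (trypsin-like). The structural subunit PSMB4 was the highest of the class, at 10450 and 10489 per kb. PSMB1 had 8430 and 7082 per kb. PSMB4 was above each catalytic subunit in both experiments, and PSMB1 was so in the knockdown experiment by canonical transcript. Per kb of the union of exons, PSMB1 was at 3385 in the knockdown experiment, below PSMB7 at 4018 and PSMB5 at 3989. PSMB7 had 7301 and 7856 per kb, PSMB5 had 5919 and 6146 per kb, and PSMB6, the lowest catalytic subunit, had 3673 and 3847 per kb. PSMB3 was at 4763 and 6076 per kb. PSMB2 was the lowest of the class at 1755 and 1728 per kb, on a canonical transcript of 4426 bases, but the highest per coding kb, at 12883 and 12682. The beta class spanned 5.95-fold and 6.07-fold by canonical transcript, and 3.05-fold and 2.87-fold by coding length.

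The catalytic subunits have inducible partners that take their place in the immunoproteasome, a form that favours peptides suited to MHC class I. In NB4 cells the constitutive transcript was above its partner for each of the 3 pairs in both experiments. PSMB5 was 4.14 times PSMB8 in the knockdown experiment and 5.37 times in the inhibitor experiment. PSMB6 was 5.59 and 6.27 times PSMB9. The closest pair was PSMB7 and PSMB10, at 2.88 and 2.90 times. On the log2 scale the ratios ran from 1.52 for PSMB7 over PSMB10 in the knockdown experiment to 2.65 for PSMB6 over PSMB9 in the inhibitor experiment, and no choice of length turned their direction. By the union of exons, the log2 ratio of PSMB5 over PSMB8 was 3.11 and 3.48, and that of PSMB6 over PSMB9 was 3.39 and 3.55. PSME1 and PSME2, which form the inducible activator PA28αβ, reached 6304 and 7397 per kb in the knockdown experiment and 5112 and 6333 per kb in the inhibitor experiment.

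The 6 ATPases form the unfolding ring of the 19S particle. By canonical transcript, PSMC5 and PSMC3 were the highest, and PSMC2 lay between them and the other ATPases. PSMC5 had 7404 and 7083 per kb, PSMC3 had 6793 and 7001 per kb, and PSMC2 had 3372 and 2732 per kb. The other ATPases were lower: PSMC6 had 1371 and 1095 per kb, PSMC4 had 1288 and 1196 per kb, and PSMC1 had 826 and 693 per kb. By coding length PSMC6, PSMC4 and PSMC1 made up a lower set and the other ATPases a higher one. PSMC4 was lowest at 1801 and 1673 per coding kb. Per kb of the union of exons the sets were not apart, with PSMC2 at 1059 and 858 and PSMC4 at 886 and 823. PSMC6 was then the lowest, at 396 and 317. The highest was 8.96 and 10.2 times the lowest by canonical transcript, and 4.49 and 4.89 times by coding length. PSMC1 also has 13 rows of named pseudogenes, which held 4.05% and 4.82% as much base mean as PSMC1 itself, so that reads of near-identical copies may be divided between them.

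The 11 members that are non-ATPase subunits of the 19S particle belong to its lid, its ubiquitin receptors and its scaffold. SEM1 and ADRM1, also subunits of the 19S particle, fall outside the naming rule and are not counted here. Both were above PSMD4 in both experiments. PSMD4, a ubiquitin receptor, was at 6433 and 6640 per kb. PSMD3 had 5958 and 6321 per kb, and PSMD2, the scaffold that meets substrate shuttles, had 5136 and 4162 per kb. PSMD7, which pairs with the deubiquitinase PSMD14, had 5099 and 4948 per kb, and PSMD13 had 4919 and 4658 per kb. The order of these genes was not the same in both experiments, since PSMD2 ranked above PSMD7 and PSMD13 in the knockdown experiment only. The deubiquitinase PSMD14 itself had 2960 and 2616 per kb. PSMD8, PSMD6, PSMD1 and PSMD11 ranged from 1804 to 3206 per kb in the knockdown experiment and from 1542 to 3344 per kb in the inhibitor experiment. PSMD12, a lid subunit, was the lowest at 631 and 543 per kb and stayed the lowest by coding length, at 2010 and 1731 per coding kb. Per kb of the union of exons it had 515 and 443. The lowest was then PSMD6 at 481 in the knockdown experiment and PSMD1 at 413 in the inhibitor experiment. The class spanned 10.2-fold and 12.2-fold by canonical transcript, and 4.26-fold and 4.90-fold by coding length.

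Of the 31 members in the core or the 19S particle, 23 lay within 2-fold of their class median in the knockdown experiment. In the inhibitor experiment 22 did. This count was made by canonical transcript only. PSMA5, PSMB2, PSMC1 and PSMD12, on transcripts of 3815 to 4426 bases, were more than 2-fold below in both experiments. PSMA7, PSMC3 and PSMC5 were more than 2-fold above in both. The median of the beta subunits was 5919 and 6146 per kb, that of the alpha subunits 4354 and 3639 per kb, that of the non-ATPase subunits 3206 and 3344 per kb and that of the ATPases 2371 and 1964 per kb. So the order of the classes was the same in both experiments. By coding length, alpha subunits came before beta subunits, at medians of 10061 and 8645 per coding kb in the knockdown experiment, and the ATPases stayed last at 4893 per coding kb. In the inhibitor experiment these medians were 10972, 8727 and 4003 per coding kb.

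By canonical transcript, the assembly chaperones ranked from 26 to 42 of the 44 members in the knockdown experiment and from 25 to 42 in the inhibitor experiment. PSMG1 and PSMG2 encode a heterodimer on which the alpha ring is built, and PSMG3 and PSMG4 another that helps its first steps. PSMG2 had 1989 and 2055 per kb and PSMG1 had 1166 and 1496 per kb. PSMG3 had 1488 and 2202 per kb, and PSMG4 had 1278 and 2576 per kb. The median of these 4 genes was 1383 and 2128 per kb, under that of the alpha and of the beta subunits in both experiments. It was under that of the ATPases in the knockdown experiment (2371) but above it in the inhibitor experiment (1964). Of the chaperones of the 19S base, PSMD9 had 1514 and 1494 per kb and PSMD10, also known as gankyrin, had 972 and 1055 per kb. PSMD5 was the lowest detected member of all, at 373 and 336 per kb. Per coding kb, PSMG3 had 5804 and 8592 and PSMD9 had 6169 and 6084. The median of the 31 members in the core or the 19S particle was 7039 and 6562 per coding kb. The other chaperones ranged from 833 to 2718 and from 752 to 5480 per coding kb.

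Genes that regulate the core from outside differed widely. PSME3, the nuclear activator PA28γ, had 3344 and 2765 per kb. PSMF1, the inhibitor PI31, had 1108 and 1233 per kb on the longest canonical transcript of the members, 8154 bases. PSME4, the activator PA200, had 904 and 631 per kb. Per coding kb PSMF1 had 11113 and 12362 and PSME3 had 13963 and 11545, both above PSME4 at 1186 and 828.

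PSMA8 and PSMB11 belong to proteasomes of single tissues, the testis and the thymic cortex. PSMA8 was listed at 0 in both experiments. PSMB11 had a base mean of 0.426 in the knockdown experiment and was listed at 0 in the inhibitor experiment. Their close relatives PSMA7 and PSMB5 had base means of 14261 and 6180 in the knockdown experiment. PSMC3IP, which is no proteasome gene, had 892 and 906 per kb.

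The experiments share no library and were normalized separately, so a gene was set across them as its share of the summed base mean. They differ in transduction, time, vehicle, treatment and any batch, and these cannot be told apart. Most members kept their share. The log2 ratio of the share in the inhibitor experiment over that in the knockdown experiment had a median of -0.05 over the 42 detected members and of -0.09 over the 12354 detected protein-coding genes. Only PSMG4 was more than 1.5-fold higher in the inhibitor experiment, 1 of 42 members against 6.94% of those protein-coding genes. No member was more than 1.5-fold lower, 0 of 42 against 15.1%.

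PSMG4 had a base mean of 1003 in the knockdown experiment and 2022 in the inhibitor experiment, a log2 ratio of shares of 0.99. PSMG3, which encodes its dimer partner, had 2124 and 3145, a log2 ratio of 0.54. These were the highest log2 ratios among the members. PSMG1 was next at 0.34, while PSMG2 was at 0.02. All 4 were positive under each scaling tried, and PSMG3 passed 1.5-fold when ratios were centred on the median gene. The antisense row PSMG3-AS1 had 195 and 159, or 9.16% and 5.05% of PSMG3, and the library kit does not mark strand, so reads where these genes overlap cannot be assigned by strand. The part of PSMG3-AS1 in the ratio of PSMG3 was not tested.

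At the other end, PSME4 had base means of 6556 and 4578, a log2 ratio of -0.54. The next lowest were PSMC6 at -0.35, PSMC2 at -0.33, PSMD2 at -0.33 and PSMD1 at -0.32. Of the 6 ATPases, 5 had a lower share in the inhibitor experiment, with PSMC3 the exception at 0.02. Of the 11 non-ATPase members, 8 had a lower share. When ratios were centred on the median gene, PSMC5 turned positive at 0.00, as did PSMD6 at 0.04 and PSMD7 at 0.02. In the core, PSMB3 at 0.33 and PSMA7 at 0.31 had the highest ratios, and PSMA1 at -0.28 and PSMB1 at -0.27 the lowest. In all, 17 members had a higher and 25 a lower share (59.5% lower, against 57.9% of all detected protein-coding genes), and centring on the median gene gave 24 higher and 18 lower.

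Of the 23 other genes linked to the proteasome, 14 lay in the top 25% of protein-coding genes in the knockdown experiment and 13 in the inhibitor experiment. SEM1, a small lid subunit outside the naming rule, had 17150 and 20337 per kb on a canonical transcript of 458 bases. ADRM1, a ubiquitin receptor of the 19S particle, had 8150 and 9734 per kb, above PSMD4 in both. POMP, the maturation factor of the core, had 4393 and 4296 per kb, above every PSMG chaperone. The deubiquitinases that bind the 19S particle were lower: USP14 had 857 and 634 per kb and UCHL5 had 472 and 358 per kb. VCP, the segregase that feeds substrates to the proteasome, had 12512 and 10396 per kb. NFE2L1 had 2127 and 1774 per kb, and NFE2L2 had 1439 and 1295 per kb, so the transcripts of both were detected. Other factors that may bind the printed core were not examined. Between the experiments, 0 of these 23 genes were more than 1.5-fold higher, against 6.94% of detected protein-coding genes. None was more than 1.5-fold lower, 0 of 23 against 15.1%. As for the members, no background of similar level was used. Their log2 ratios ran from -0.51 for UBQLN2 to 0.23 for ADRM1, with 6 higher and 17 lower. The median was -0.23, against -0.09 over detected protein-coding genes, of which 57.9% were lower.

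The 30 pseudogene rows named for a member carried 0.0701% of the members' base mean in the knockdown experiment and 0.0707% in the inhibitor experiment. The largest antisense row was PSMA3-AS1, at 1011 and 1424, or 29.9% and 44.2% of the base mean of PSMA3, for which the same limit on strand holds.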

How the data were processed

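Total RNA of NB4 cells was made into TruSeq libraries, a kit that does not mark strand. Per the labels and methods, the authors aligned reads with STAR 2.7 to the hg38 genome, estimated gene counts by RSEM and ran DESeq2 once for the knockdown (EV, shA1, shB2) and once for the inhibitor (DMSO, MC2580) libraries. The RSEM and DESeq2 versions and the annotation release are not given in the sources used here. The signal values the authors deposited, base means, are averages over the libraries of a table of RSEM counts divided by size factors. The other columns of both tables hold the authors' own comparisons (log2 fold changes, standard errors, test statistics and p-values) and were not used. No value per library was analysed here, so no total count per library, interval or test is given.

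Gene identifiers were matched without version to GENCODE release 44 (GRCh38): 60306 of 60603, and all 44 members, had a length. Base means were divided by the length of the transcript tagged as canonical, and shares by the sum of the table. No test across genes was run. The calculation of shares was tried on simulated counts with planted 2-fold changes and Poisson noise only. Those counts hold no batch or other difference between experiments, so they do not bear on the comparison between the experiments. Python 3.11.15, numpy 2.4.6 and pandas 2.3.3 were used. The members, gene lists and motifs were chosen with earlier results of these data known. Named genes were all members, the 5 genes that the rule leaves out, and a list of 23 proteasome-linked genes. The alternatives were other lengths, another minimum base mean (1 or 50 in place of 10), addition of pseudogene rows, other scalings and a 2-fold threshold. A cell type marker that had been listed is not reported here.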

Additional observations from a re-analysis of the deposited data

How the results depend on the processing

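No paired analysis was possible because the base means hold no value per replicate, and for the same reason no replicate could be left out. The 31 members in the 20S core or the 19S particle had a median of 7039 per coding kb in the knockdown experiment. In the inhibitor experiment this median was 6562. Per kb of the union of exons these medians were 1706 and 1629. By coding length the ratio of highest to lowest was 4.34 and 5.72 for the alpha subunits, 3.05 and 2.87 for the beta subunits, 4.49 and 4.89 for the ATPases and 4.26 and 4.90 for the non-ATPase subunits. By the union of exons these were 9.12 and 12.8, 2.63 and 2.68, 11.6 and 15.0, and 6.40 and 7.24. With named pseudogene rows added, the ratio of the ATPases was 8.61 and 9.76, and the other ratios and medians were the same to 3 digits. The log2 ratio of constitutive subunit over partner by coding length was 2.01 and 2.39 for PSMB5, 2.05 and 2.22 for PSMB6 and 1.51 and 1.52 for PSMB7, and by the union of exons 3.11 and 3.48, 3.39 and 3.55, and 1.40 and 1.41. The count of members in the top 25% ranged from 31 to 40 over the lengths, minimums and pseudogene rows tried. Centred on the median gene, 2 members, PSMG3 and PSMG4, differed by over 1.5-fold between the experiments, and at 2-fold 0 did. With every row of the families that is not protein-coding, the share rose to 0.642% and 0.768% of the members' base mean. The length is a property of the annotation, and which transcripts NB4 cells use was not examined. Depth per library is unknown, so how far it limits these values was not tested.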
